A study of Mus musculus with 6 samples.

Results

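The sites described here gained accessible chromatin under both of the histone deacetylase (HDAC) inhibitors tested, MS-275 and CXD101. Members were selected on the deposited peak lists: an MS-275 gained peak, meaning a peak of MS-275 over vehicle, was a member when it shared at least 1 base with a CXD101 gained peak, and the CXD101 peak was then a member too. The rule kept 358 of 8480 MS-275 gained peaks (4.22%) and 268 of 284 CXD101 gained peaks (94.4%). The 6 lists of the series held 11800 peaks in all. Each summit was counted as 1 peak, and members that touched were merged into 239 shared sites, since summits of 1 interval share reads.

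Assay for transposase-accessible chromatin with sequencing (ATAC-seq) cuts open DNA with a transposase and reads the fragments. It was applied to monocytic myeloid-derived suppressor cells (M-MDSCs, gated as CD11b+Ly-6ChiLy-6G-) taken from tumors of Hepa 1-6, a mouse hepatoma line grown in the liver of female C57BL/6J wild-type mice aged 6 to 8 weeks. The groups were vehicle, MS-275 and CXD101, each with 2 of the 6 libraries, and each inhibitor was injected intraperitoneally every day at 5 mg/kg for 10 days. Every group carried the tumor, so no comparison involved tumor-free mice. The dose was matched by weight and not by moles.

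Class I HDACs (HDAC1, HDAC2, HDAC3 and HDAC8) remove acetyl groups from histone tails, mostly as the catalytic part of co-repressor complexes such as Sin3, NuRD, CoREST and NCoR/SMRT. Both compounds inhibit HDAC1-3. Acetylated histones bind DNA less tightly and recruit bromodomain proteins, and chromatin that gains acetylation is commonly more accessible. M-MDSCs resemble immature monocytes and restrain T cells in tumors.

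The lists came from pooled libraries, so no value per mouse, no spread between replicates and no test over samples exist for any site below. The intervals given cover counting error only. Each site is described by its tags, its vehicle level and its fold enrichment. Tags are the reads of a treated group that the peak caller piled up at the summit. The vehicle level at the same base is the highest of several local averages, as the peak caller takes it, and is not a count of tags. In the list of MS-275 over CXD101, the CXD101 control level had a median of 35.7 at the 47 shared sites held there. The CXD101 tags against vehicle at these sites had a median of 56.3. Summits can differ in base, and that list favours a low CXD101 level. Tags and levels are therefore unlike measures, and tags set over a level can overstate a gain. The fold enrichment is the deposited ratio. Tags were recovered from the deposited fold enrichments and p-values and are given at vehicle depth; before scaling, the pooled MS-275 and CXD101 groups had 1.1437 and 1.1371 times the depth of vehicle. Lists of differences do not give the level of marker genes, so the identity of the sorted cells could not be checked against them.

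To show what the opened DNA looked like, the CXD101 summit with 100 bp on either side (mm10, plus strand, read from the GRCm38 reference) is printed for the 6 sites with the highest CXD101 −log10 p-value, with each CpG dinucleotide in capitals. The windows lie in an intron of Syn3 (chr10:86166891-86167091), in an intron of March4 (chr1:72509143-72509343), in an intron of Cabcoco1 (chr10:68522052-68522252), at the start of Zfp467 (chr6:48444273-48444473), in an intron of Ddx60 (chr8:62014478-62014678) and in an intron of the long non-coding RNA gene Gm31108, upstream of Etnk1 (chr6:143147049-143147249).
Syn3: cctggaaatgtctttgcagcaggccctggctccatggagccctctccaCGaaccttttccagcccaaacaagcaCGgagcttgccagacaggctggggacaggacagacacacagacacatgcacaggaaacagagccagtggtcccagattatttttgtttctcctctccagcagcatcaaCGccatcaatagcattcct
March4: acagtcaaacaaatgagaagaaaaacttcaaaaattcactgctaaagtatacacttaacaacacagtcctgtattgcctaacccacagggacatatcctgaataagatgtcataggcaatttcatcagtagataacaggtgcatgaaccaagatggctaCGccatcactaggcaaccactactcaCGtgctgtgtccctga
Cabcoco1: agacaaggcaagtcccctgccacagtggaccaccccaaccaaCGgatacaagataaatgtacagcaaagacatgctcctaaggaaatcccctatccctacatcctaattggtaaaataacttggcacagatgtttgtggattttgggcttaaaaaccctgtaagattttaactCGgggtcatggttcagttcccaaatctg
Zfp467: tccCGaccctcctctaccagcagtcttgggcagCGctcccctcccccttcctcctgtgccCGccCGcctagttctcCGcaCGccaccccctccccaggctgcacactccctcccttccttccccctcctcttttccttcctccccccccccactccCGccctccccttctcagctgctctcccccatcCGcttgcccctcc
Ddx60: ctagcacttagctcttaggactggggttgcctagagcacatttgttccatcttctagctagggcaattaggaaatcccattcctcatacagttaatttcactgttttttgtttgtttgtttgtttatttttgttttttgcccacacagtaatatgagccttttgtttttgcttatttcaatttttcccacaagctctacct
Gm31108: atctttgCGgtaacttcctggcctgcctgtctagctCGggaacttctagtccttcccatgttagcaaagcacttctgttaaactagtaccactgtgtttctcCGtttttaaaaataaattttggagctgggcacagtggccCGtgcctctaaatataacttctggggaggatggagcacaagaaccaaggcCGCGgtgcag

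These windows held few CpGs. The counts were 3 at Syn3, 2 at March4, 2 at Cabcoco1, 8 at Zfp467, 0 at Ddx60 and 6 at Gm31108. For comparison, windows at starts of coding genes are printed next, upstream of Igf2bp3 (chr6:49215214-49215414), Gabbr1 (chr17:37045680-37045880) and Nedd4 (chr9:72662095-72662295). With Zfp467, Igf2bp3 and Gabbr1 were the coding-gene starts with the highest CXD101 −log10 p-value, and Nedd4 is the ubiquitin ligase gene that the study followed.
Igf2bp3: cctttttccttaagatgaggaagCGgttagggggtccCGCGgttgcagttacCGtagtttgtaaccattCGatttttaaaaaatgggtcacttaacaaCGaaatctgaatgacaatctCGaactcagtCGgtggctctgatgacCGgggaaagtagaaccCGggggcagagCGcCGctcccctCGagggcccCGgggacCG
Gabbr1: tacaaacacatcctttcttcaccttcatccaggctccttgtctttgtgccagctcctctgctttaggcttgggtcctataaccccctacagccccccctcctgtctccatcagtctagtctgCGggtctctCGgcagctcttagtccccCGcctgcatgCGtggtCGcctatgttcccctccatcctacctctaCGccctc
Nedd4: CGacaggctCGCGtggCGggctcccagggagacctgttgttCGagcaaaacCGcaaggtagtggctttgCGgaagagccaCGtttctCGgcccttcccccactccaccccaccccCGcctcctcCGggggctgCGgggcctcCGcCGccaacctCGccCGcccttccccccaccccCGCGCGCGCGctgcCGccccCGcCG

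The windows at Igf2bp3, Gabbr1 and Nedd4 held 15, 6 and 24 CpGs. Their GC contents were 53.7%, 57.2% and 74.6%. In the 6 leading windows the GC content ran from 36.8% at Ddx60 to 69.7% at Zfp467, with 53.7% at Syn3, so the 2 sets overlap in both GC content and CpG count.

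The gains with the lowest CXD101 p-values lay mostly in introns. Of the 12 shared sites with the highest CXD101 −log10 p-value, 9 lay in an intron (75%, against 43.1% of all shared sites) and 1 lay within 1 kb of the transcription start site (TSS) of a coding gene (8.33%, against 21.3%). None of the 12 was CpG-rich, which allows a share of up to 25% and so includes the 16.7% of all shared sites. CpG-rich was defined as a GC content of at least 50% and an observed over expected CpG ratio of at least 0.6 within 250 bp of the summit. Because these p-values chose the members, the values that follow are a description.

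The leading site lay in an intron of Syn3, which encodes the synaptic vesicle protein synapsin III. It had 60.7 CXD101 and 75.2 MS-275 tags, against 8 for vehicle, with fold enrichments of 6.85 and 8.47. Both treated groups were far above the vehicle level. Further shared sites stood in the same gene, 1 of them 123 bp away, with folds of 5.01 for CXD101 and 5.98 for MS-275, and another 6759 bp beyond that, with folds of 3.75 and 5.25. March4 encodes a membrane-bound ubiquitin ligase of the RING-CH family. Its intronic site had 80.9 CXD101 and 92.7 MS-275 tags, against a vehicle value of 17 at the CXD101 summit and 20 at the MS-275 summit. Another shared site lay 10666 bp away.

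At the remaining leading sites the vehicle level ranged more widely. Cabcoco1, which encodes a calcium-binding coiled-coil protein, had 65.1 CXD101 and 77.8 MS-275 tags against a vehicle level of 12. Ddx60, an interferon-induced helicase gene of antiviral defense, had 87.9 CXD101 and 91.8 MS-275 tags over 22.8. The inhibitors were nearly equal there. At Gm31108 the tags were 69.5 for CXD101 and 84.8 for MS-275, over a vehicle level of 14.8 at the CXD101 summit. A site 119138 bp upstream of Tbl1xr1 (chr3:21957009-21957709), which encodes a subunit of the NCoR/SMRT co-repressor that carries HDAC3, had 78.3 CXD101 tags over a vehicle level of 19 and 110.2 MS-275 tags over 28 at the MS-275 summit, so the folds were close (3.96 and 3.83). Sites in introns of Pappa, a metalloproteinase gene of the insulin-like growth factor pathway, and of Hif3a, a hypoxia-inducible factor gene, had CXD101 folds of 3.37 and 3.85 and MS-275 folds of 3.44 and 4.00. A site in an intron of Ostf1 reached 115.2 CXD101 and 147.8 MS-275 tags over 39.2. It had the most CXD101 tags of the 12. Repeat sequence, as soft-masked in the reference, made up 50% or more of the window at 3 of these 12 sites, among them the whole window near Tbl1xr1 and 83.1% at Ostf1. Reads from repeats can be placed at more than 1 copy, so these positions are less certain. Over all shared sites the count was 14 of 239.

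**Figure D1:**
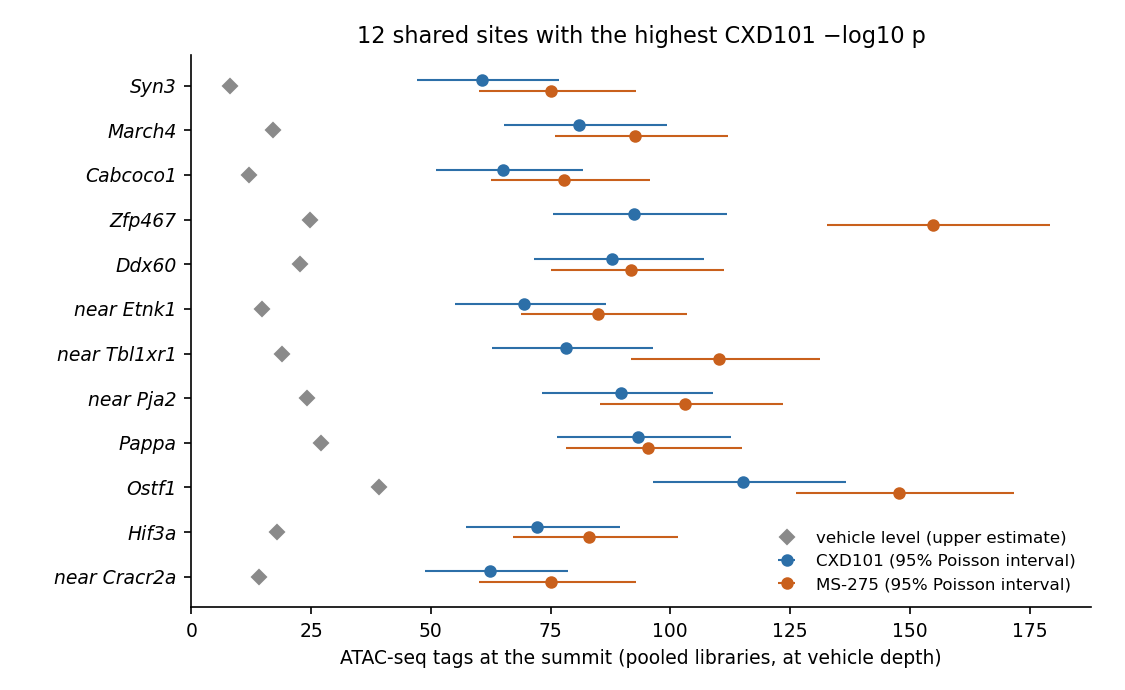
Tags at the CXD101 summit (CXD101, blue) and at the nearest MS-275 summit (orange) with 95% Poisson intervals, and the vehicle level (grey diamonds), for the 12 shared sites with the highest CXD101 −log10 p-value, on a linear axis of tags at vehicle depth. All treated points sit to the right of their vehicle level, and the intervals of the inhibitors overlap at every site except Zfp467. The legend's upper estimate means the highest of several local averages, which is not a count of tags.

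Across the 239 sites the gains were moderate. Fold enrichment ran from 1.64 to 6.85 among CXD101 members, with a median of 2.82, and from 1.45 to 10.5 among MS-275 members, with a median of 3.23. The site length ran from 212 to 2481 bp, with a median of 377 bp. The median vehicle level was 16.7 tags at CXD101 members, and 215 of 268 had a level of at least 10 tags. The fold has the vehicle level in its denominator, and the threshold asks for a higher fold at a low level, so the next values are a description. In the third of paired sites with the lowest vehicle level the median CXD101 fold was 3.59 and the median MS-275 fold 4.24, and in the third with the highest level they were 2.26 and 2.61.

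Most sites held 1 summit of each list (145 of 239). The MS-275 list held more summits per site: 87 sites had 2 or more MS-275 summits and 26 had 2 or more CXD101 summits. The longest, 111429 bp upstream of Irf2bp2 (chr8:126704309-126706789), a gene for a transcriptional co-repressor, spanned 2481 bp with 6 MS-275 and 4 CXD101 summits. In all, 23 sites had 3 or more summits in either list. They included introns of Flt1, the vascular endothelial growth factor receptor 1 gene (3 MS-275 and 3 CXD101 summits), Aff1, a transcription elongation factor gene (3 and 2), Chst13, Ppm1h, Dach1, Ptp4a3 and Hif3a, exons of Arntl, the circadian factor BMAL1 (3 and 1), Clec12a, Parvb and Mctp1, and intergenic DNA 104926 bp upstream of Trpm1 (5 and 1). At each of the 23 the MS-275 list had at least as many summits as the CXD101 list.

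The inhibitors were given at the same dose by weight and for the same time, and their tags can be compared at the 238 sites where the nearest MS-275 summit lay within 250 bp of the leading CXD101 summit. The summits were close, with a median distance of 22 bp. MS-275 gave 67.3 tags at the median (22.7 to 154.8) and CXD101 gave 51.9 (21.99 to 134.6). The ratio of MS-275 to CXD101 tags had a median of 1.23 and ran from 0.714 to 2.53. MS-275 had more tags at 213 of the 238 sites, and at 129 the ratio was from 0.8 to its inverse. Taken site by site, the 95% interval of the ratio from counting error lay above 1 at 53 sites and below 1 at 0 sites. At the other 185 the interval included 1, which does not show that the inhibitors act alike. Among these 185 were 19 sites that the list of MS-275 over CXD101 held. Members were selected by passing the threshold in both lists, so the ratio describes these sites and is not a test of potency.

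**Figure D2:**
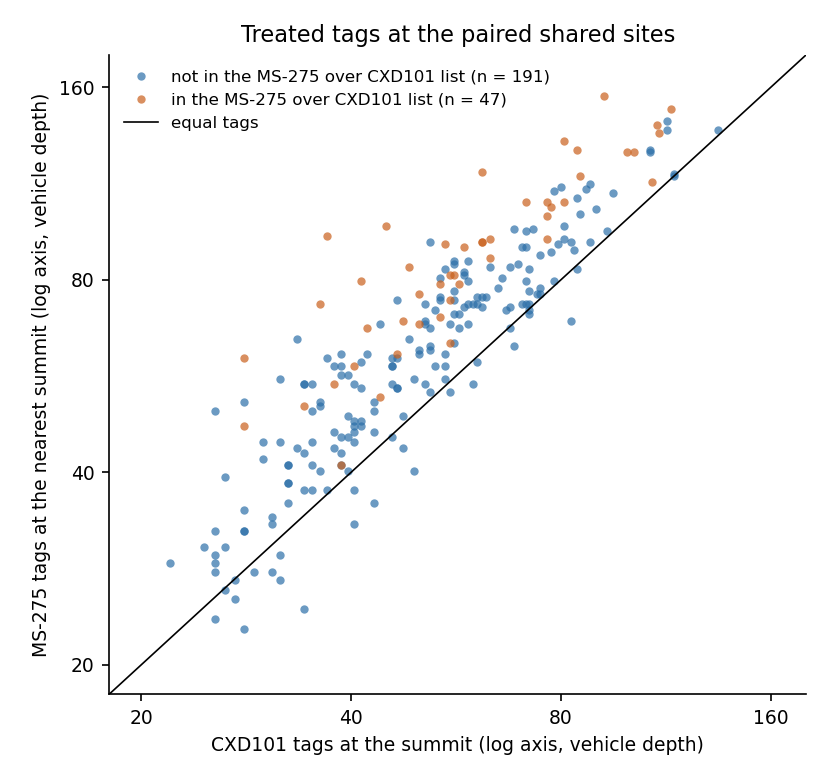
CXD101 tags (x axis) against MS-275 tags at the nearest summit (y axis) for the 238 paired shared sites, both on log axes and at vehicle depth, with the line of equal tags. Most points (213 of 238) lie above the line, and the 47 sites in the list of MS-275 over CXD101 (orange) all do.

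The highest ratios were found 70151 bp downstream of the start of Vsig4, a macrophage complement receptor gene (chrX:96222923-96223806, 36.9 CXD101 and 93.6 MS-275 tags, ratio 2.53, 95% interval 1.76 to 3.71), and in an intron of Kank1 (36.1 and 73.5 tags, ratio 2.04, interval 1.39 to 3.04). The window near Vsig4 was 80.1% repeat sequence. Ratios of 2.16 upstream of Haao, 2.14 upstream of Itga6 and 1.95 downstream of Olfm4 compare summits that were 171, 192 and 248 bp apart, so they set different bases side by side. The lowest ratios stood at the start of Nbea, which encodes the vesicle-trafficking protein neurobeachin (34.3 CXD101 and 24.5 MS-275 tags, ratio 0.714, interval 0.423 to 1.19), between genes upstream of Snx16 (0.808), in the first kilobase of Ptbp2, a neuronal splicing regulator gene (0.817), at the start of Shisa2 (0.821) and near 9130008F23Rik (0.832). All 5 intervals of the lowest ratios included 1. The summits compared near Snx16 and 9130008F23Rik were 125 and 192 bp apart, so these ratios also set different bases side by side.

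By position, the median ratio was 1.19 for the 50 paired sites within 1 kb of a coding TSS and 1.24 for the 188 farther away. It was 1.13 for 30 exonic, 1.24 for 103 intronic and 1.24 for 105 intergenic sites. CpG-rich sites had a median of 1.19 (40 sites) and the others 1.24 (198 sites). The interquartile ranges overlapped: 1.02 to 1.34 for CpG-rich sites and 1.13 to 1.41 for the others.

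**Figure D3:**
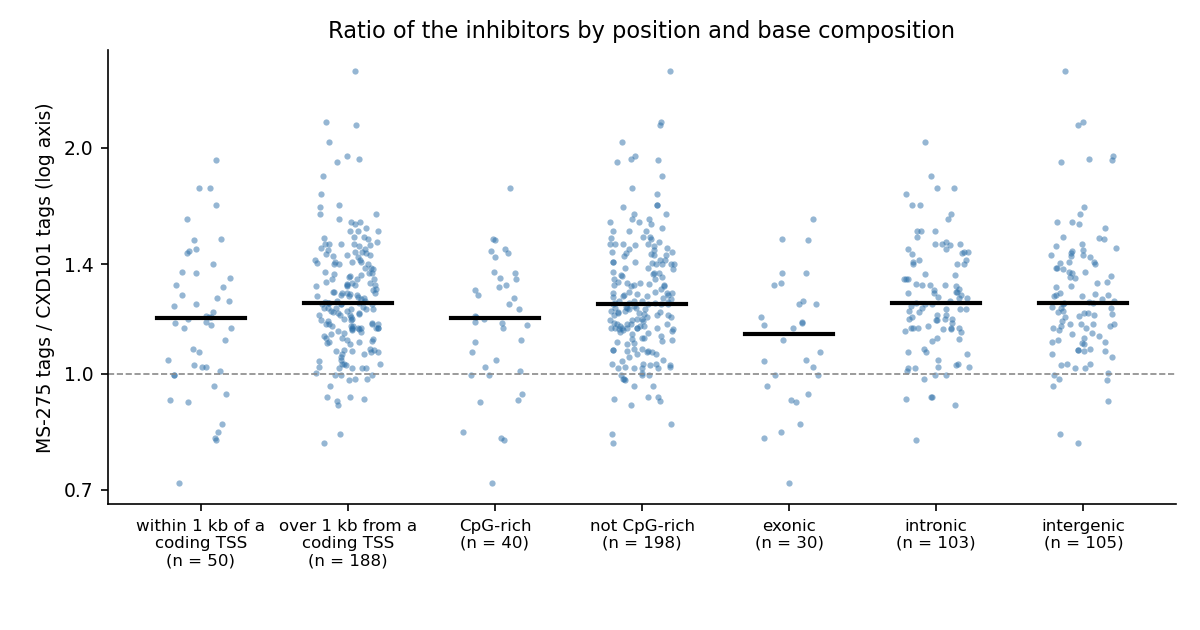
Ratio of MS-275 to CXD101 tags (log axis) at each paired shared site, grouped by distance to a coding TSS, by CpG content and by gene context; points are sites, black bars are medians and the dashed line marks equal tags. The medians run from 1.13 (exonic) to 1.24, and every group has points on both sides of the line.

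The list of MS-275 over CXD101 compares the inhibitors without vehicle, and it shares the treated libraries with the lists that chose the members. It held 82 of the 358 MS-275 members (22.9%, 95% Wilson interval 18.8% to 27.5%) and 51 of the 268 CXD101 members (19.0%). Of all MS-275 gained peaks, 17.4% were in that list, and of those not shared with CXD101, 17.2%, so the share of MS-275 members lay above the background. Counted by site, since summits of an interval share reads, it was 47 of 239 (19.7%, 15.1% to 25.2%), an interval that includes the background. With summits required within 250 bp, it was 15.6% of the MS-275 members and 13.9% of those not shared with CXD101. The background shares count MS-275 gained peaks, and none was computed for CXD101 gained peaks or merged sites, so these are set beside an unlike unit. The list of CXD101 over MS-275 had 2 peaks and held 0 of the 626 members.

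The 47 shared sites in the direct list had 28.1 to 115.2 CXD101 tags (median 56.3) and 41.1 to 154.8 MS-275 tags (median 90.1). MS-275 had more at all 47, and the median ratio was 1.46 against 1.19 at the other 191 paired sites. The highest direct fold, 3.26, was found in an intron of Dnajc6 (chr4:101510849-101511578), which encodes auxilin, a chaperone of clathrin-coated vesicles, with 47.2 MS-275 tags over a CXD101 level of 13.9. The next were a site 346283 bp upstream of Siglech, a lectin gene of plasmacytoid dendritic cells (direct fold 2.996, over a CXD101 level of 12.8), the start of Ndrg2 (2.86), the site near Vsig4 (2.85) and a site 89524 bp upstream of Itga6, an integrin gene (2.75). The window near Siglech was 85.1% repeat sequence, so its position is less certain. At the summits of the vehicle lists near Siglech the tags were nearly equal, 38.7 for CXD101 and 41.1 for MS-275 (ratio 1.06, interval 0.689 to 1.64). The direct fold and the ratio differ there, as their medians over the 47 sites do. At Ndrg2 the vehicle level was 11.8, and the tags were 41.3 under CXD101 and 79.6 under MS-275. Zfp467, a zinc finger transcription factor gene, combined a high CXD101 value with a difference between the inhibitors: 92.3 CXD101 and 154.8 MS-275 tags against a vehicle level of 24.8, ratio 1.68 (interval 1.31 to 2.16), and direct fold 2.63. The median of all 47 direct folds was 2.23, above the median ratio of 1.46 at the same sites. A direct fold sets MS-275 tags over a CXD101 control level (median 35.7), which lay below the CXD101 tags against vehicle (median 56.3). Direct folds therefore cannot be read as the ratio of tags between the inhibitors.

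Position and base composition were not used by the rule. Of the 239 shared sites, 106 were intergenic (44.4%, 38.2% to 50.7%), 103 intronic (43.1%, 37.0% to 49.4%) and 30 exonic (12.6%, 8.94% to 17.4%). Of the 30 exonic summits, 17 lay in an untranslated region, 6 in coding sequence and 7 in exons without coding sequence, and 25 of the 30 lay within 1 kb of a coding TSS. With a promoter taken as the 5 kb upstream of any TSS, 67 shared sites (28.0%, 22.7% to 34.0%) touched one, against 31.7% (30.6% to 32.8%) of the 6832 other MS-275 gained intervals. These intervals overlap.

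A larger share of the shared sites lay far from the start of a coding gene. The summit lay over 50 kb from any coding TSS at 80 of 239 sites (33.5%, 27.8% to 39.7%), against 21.9% (20.9% to 22.9%) of the other MS-275 gained intervals, and the intervals do not overlap. Some of these summits lay within long genes, as in the introns of Syn3 and Pappa, and with the TSS of any annotated gene the shares were 13.8% and 7.03%. This distance was chosen after the values were seen. At 20 kb the shares were 49.0% and 39.0%, and at 100 kb they were 22.2% and 11.6%. Shared members also had higher −log10 p-values than other MS-275 gained peaks, with medians of 14.6 and 10.2. Among sites and intervals with at least the members' median value, 57 of 146 shared sites (39.0%, 31.5% to 47.1%) and 25.3% of 1915 other intervals (23.4% to 27.3%) lay over 50 kb from a coding TSS. The median distance was 16903 bp for shared sites and 11579 bp for the others.

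Another group of shared sites stood on CpG-rich starts of coding genes. There were 40 CpG-rich sites (16.7%, 12.5% to 21.99%), of which 35 lay within 1 kb of a coding TSS. Among the other MS-275 gained intervals 12.3% were CpG-rich (11.6% to 13.1%). With at least the members' median −log10 p-value on both sides, the shares were 10.3% (6.33% to 16.3%) and 5.90% (4.93% to 7.05%), and in both comparisons the intervals overlap. Of intervals that lost accessibility, 4.14% under MS-275 and 7.77% under CXD101 were CpG-rich. Within 1 kb of a coding TSS lay 51 shared sites (21.3%, 16.6% to 27.0%), 17 with the summit upstream and 34 downstream of the start, against 20.6% of the other MS-275 gained intervals. With that minimum −log10 p-value the shares were 15.1% (10.2% to 21.8%) and 13.3% (11.8% to 14.9%), with overlapping intervals.

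**Figure D4:**
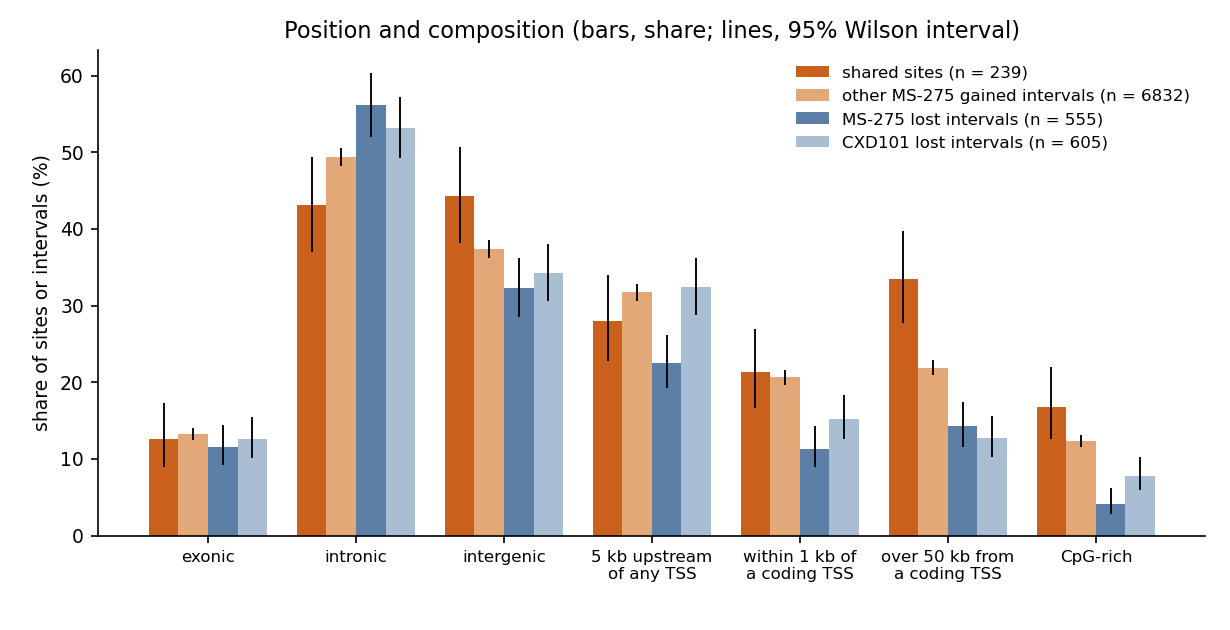
Share of shared sites, other MS-275 gained intervals and intervals lost under each inhibitor by position and CpG content (bars from 0, percent; lines, 95% Wilson intervals). The shared sites have the tallest bars over 50 kb from a coding TSS (33.5%) and for CpG-rich windows (16.7%).

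At the gene starts the vehicle level was higher and the folds were lower than elsewhere. The median vehicle level was 22.9 tags for the 50 paired sites within 1 kb of a coding TSS and 16.5 for the 188 others. Median CXD101 folds were 2.36 and 2.96, and median MS-275 folds 2.77 and 3.58. The gene starts with the highest CXD101 −log10 p-value after Zfp467 were Igf2bp3, Gabbr1, Usp51, Senp6, Slc16a7, Dach1, Fam135a, Rida, Clec12a, Fam181b and Nbea. The summit upstream of Igf2bp3, a gene for an mRNA-binding protein of fetal tissue and tumors, had 55.4 CXD101 and 74.3 MS-275 tags over 11.6. It was also in the direct list, with a fold of 2.72. Usp51, which encodes a deubiquitinase of histone H2A, had 56.3 CXD101 and 84.8 MS-275 tags over 14.2 in an untranslated region.

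The remaining starts covered a wide range of vehicle levels. Senp6, a SUMO protease gene, had 82.7 CXD101 and 69.1 MS-275 tags over a level of 30. The order was opposite to most sites, but the interval of the ratio (0.836, 0.612 to 1.14) included 1. Fam135a had 94.98 and 109.3 tags over 39, and Slc16a7, a monocarboxylate transporter gene, had 113.4 and 141.6 over 50.8. Clec12a, an inhibitory lectin receptor gene of myeloid cells, had 34.3 and 55.1 tags over 7.2. Rida had 31.7 and 27.1 tags over 5.84, which is the lowest vehicle level in the lists and stands for the background of the genome. Dach1, a transcription factor gene, carried a shared site 306 bp upstream of its start (CXD101 fold 3.18, MS-275 fold 2.89) and another in an intron (1.92 and 2.12).

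Of the genes discussed in the study, Nedd4 and Trim6 had a shared site. The study picked Nedd4, Trim6 and Trim32 from genes with gained promoter signal and higher RNA under both inhibitors in this same experiment. A shared site at these genes is therefore no independent support. Nedd4 encodes a ubiquitin ligase of the HECT family. Its site, 151 bp upstream of the start, had 44.0 CXD101 and 52.5 MS-275 tags, against a vehicle value of 17.6 at the CXD101 summit, with folds of 2.42 and 2.81, and the ratio was 1.19 (interval 0.806 to 1.77). The site was also in the list of MS-275 over CXD101, with a direct fold of 1.77. Trim6, a ubiquitin ligase gene of the tripartite motif family, had 79.2 CXD101 and 90.9 MS-275 tags over 43.4, 194 bp into the gene, with folds of 1.81 and 2.06. Both folds were below the member medians. Of the 7 study genes listed, Trim32, Ccr2, Hdac1, Hdac2 and Hdac3 had no shared site in the gene or 5 kb upstream. The study had placed Trim32 among its genes gained under both inhibitors. It reported more peaks for each inhibitor than the 8480 for MS-275 and 284 for CXD101 used here. The peak sets are therefore unlike, and the missing site at Trim32 cannot be set against the study.

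Of all 21755 annotated protein-coding genes, 0.598% (130) had a shared site in the gene or 5 kb upstream, and the share rose with gene length, from 0.166% in the quartile of shortest genes to 1.54% in the longest. Against that background, 3 of 71 synaptic and neuronal genes (4.23%) had one: Syn3, Gabbr1 and Rims1. That list has a median gene length of 60.6 kb against 17.4 kb for all coding genes. Gabbr1, a subunit of the metabotropic GABA receptor, had 113.4 CXD101 and 137.3 MS-275 tags against a vehicle level of 44.8, 186 bp upstream of its start. Rims1, a scaffold protein of the presynaptic active zone, had 26.4 and 26.2 tags over a level of 7, 238 bp upstream.

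Lists closer to the biology of these cells held at most 1 gene with a shared site each. Among 50 myeloid transcription factor genes 1 had a shared site (2%), Tcf4, which is required for plasmacytoid dendritic cells, with folds of 3.29 for CXD101 and 4.09 for MS-275. Among 25 genes of suppressive function 1 did (4%), Nt5e, the ecto-5'-nucleotidase CD73 that makes adenosine, with 51.9 CXD101 and 67.3 MS-275 tags 1879 bp into the gene over levels of 18 and 28. Plac8 was the only 1 of 14 monocyte marker genes (7.14%), with 50.1 and 76.1 tags over a level of 21.8, 2630 bp upstream. The window near Plac8 was 65.7% repeat sequence. None of 34 genes of class I HDAC complexes, 31 chemokine and receptor genes or 29 genes of cell cycle arrest and apoptosis had a shared site, although 6 (17.6%), 4 (12.9%) and 8 (27.6%) of them had an MS-275 gained peak, against 11.7% of all coding genes. None of the 104 marker genes of macrophages, neutrophils, dendritic cells, T cells, NK cells, B cells, hepatocytes, erythroid cells or endothelial and stellate cells had one. With 7 to 71 genes a list, such counts are too small to separate a list from the background.

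Exact matches to 14 short motifs were counted on both strands in the CXD101 summit windows described above. The AP-1 motif (TGACTCA or TGAGTCA, the site of FOS and JUN factors) was found in 2 of 239 shared sites (0.837%, 0.230% to 2.999%), against 2.90% (2.53% to 3.32%) of other MS-275 gained intervals and 3.12% of all genome windows of that length. The shares of intervals that lost accessibility were higher, 18.02% (15.04% to 21.4%) under MS-275 and 14.1% (11.5% to 17.1%) under CXD101. The GC box of SP and KLF factors (GGGCGG) was found in 23 shared sites (9.62%, 6.50% to 14.0%), in 10.1% of other MS-275 gained intervals and in 1.97% of genome windows.

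The neuron-restrictive silencer element RE1 recruits REST, which works through HDAC-containing co-repressors. Its left part (CAGCACC) was found in 15 shared sites (6.28%, 3.84% to 10.1%), in 4.83% of other MS-275 gained intervals and in 3.62% of genome windows. Its right part (GGACAG) was found in 38 shared sites (15.9%, 11.8% to 21.1%), in 17.7% of other MS-275 gained intervals and in 12.4% of genome windows. Both parts with 2 bases between them were found in 0 of 239 shared sites, which allows a share of up to 1.26%. That exact string is rare, with 564 of 12732868 genome windows (0.00443%) and 0 of 6832 other MS-275 gained intervals. At that rarity, a count of 0 among 239 sites says nothing about RE1 at shared sites. The Syn3 window above holds the right part alone. The C/EBP motif (TTGCNNAA) was found in 15 sites (6.28%), against 9.03% of other MS-275 gained intervals and 9.40% of genome windows. PU.1 (GAGGAAGT), ETS (CCGGAAG), E-box (CACGTG), IRF (GAAA, 2 bases, GAAA) and NRF1 (GCGC, 2 bases, GCGC) were each found in 3 sites (1.26%), RUNX (TGTGGTT) in 9 (3.77%), CTCF (CC, 3 bases, AG, 2 bases, GGC) in 7 (2.93%) and CRE (TGACGTCA) in 1 (0.418%). The shares of other MS-275 gained intervals and of genome windows were 1.83% and 1.20% for PU.1, and 1.64% and 0.570% for ETS. They were 2.94% and 1.96% for E-box, 2.85% and 3.32% for IRF, and 0.732% and 0.121% for NRF1. For RUNX they were 4.655% and 4.73%, for CTCF 3.78% and 2.06%, and for CRE 0.117% and 0.108%. The PU.1 and ETS strings have the letters GGAAG in common. For each of these motifs the intervals of shared and other MS-275 gained intervals overlapped. A match is a string of letters and not a bound factor.

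**Figure D5:**
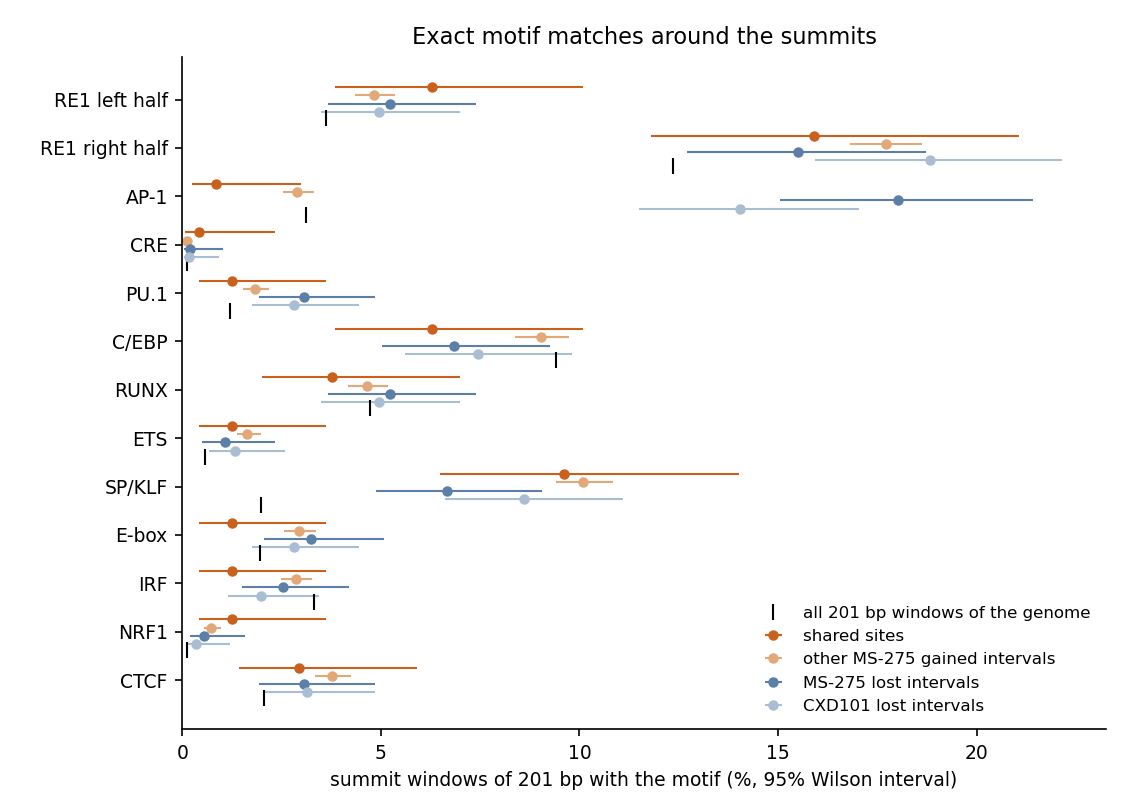
Share of summit windows with each motif (x axis, percent, with 95% Wilson intervals) for shared sites, other MS-275 gained intervals and intervals lost under each inhibitor, with black ticks for all genome windows. At AP-1 the shared sites (0.837%) lie below both groups of lost intervals (14.1% and 18.02%), and at SP/KLF all 4 groups lie above the genome tick (1.97%).

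At the edge of the rule, the smallest overlap inside it measured 144 bp (site downstream of the Zfp114 start, CXD101 fold 2.998), and others among the smallest measured 185 bp (upstream of Snx16, 4.05) and 188 bp (at the start of Rgs7, 2.43). By interval, no member rested on a few bases. Overlap was scored on whole intervals, so a summit in a long interval could be a member with no CXD101 summit near it. A rule of summits within 250 bp of each other kept 265 MS-275 gained peaks in place of 358, and 266 CXD101 gained peaks in place of 268. The 16 CXD101 gained peaks outside the overlap rule had folds of 2.15 to 4.62 and a median −log10 p-value of 8.14, against 9.79 for members. The nearest to an MS-275 gained peak lay 168 bp away, downstream of the Stim2 start (37.8 CXD101 tags over a vehicle level of 11.4), and the next lay 205 bp away on chromosome 12, then 10898 bp in Slc39a11 and 22693 bp in Dlg2. None of the 16 was in the list of MS-275 over CXD101.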

How the data were processed

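ATAC-seq was compared between vehicle, MS-275 and CXD101 M-MDSCs, grouped by their treatment label, with 2 libraries per group. Per the study's methods and the submitters' processing notes, the authors aligned reads with Bowtie 2 to mm10 and called peaks with MACS2 2.2.7.1 on the pooled libraries of a group against those of another, without a model and with a shift of 0, so reads were not moved to the transposase cut site. The fold enrichment was deposited as a linear ratio of treated to control pileup. The p-value and q-value were deposited as −log10 values, and the lists end at a −log10 q-value of 1.30. The methods name a stricter p-value limit that the lists do not follow, since members reach down to a −log10 p-value of 3.88, so a gained peak here is one that passed the q-value. The summit was deposited as an offset from the start of the interval. The depth per library was not used here; relative depths of the pooled groups came from the recovered tags.

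Tags and control levels were solved from each fold and Poisson p-value, with a pseudocount of 1 and whole tags times a scaling factor (0.8744 for MS-275, 0.8794 for CXD101). A whole tag was accepted within 0.0001 plus a rounding allowance. All 10414 peaks of the 3 lists used for tags were solved, and the solver, tested on simulated data, recovered 400 of 400 peaks per vehicle list. Gene positions came from GENCODE vM21, with promoters as the 5 kb upstream of a TSS, and sequence came from GRCm38.p6, whose primary chromosomes are those of mm10. Shares have 95% Wilson intervals, and ratios of tags have exact binomial intervals of the whole tags. For counts of 0, the share equal to 3 counts is given as the limit. Python 3 with NumPy, pandas and SciPy was used. Sites were named by fixed ranks: lowest p-value in either list, lowest p-value near a coding TSS, highest direct fold, highest and lowest ratio, 3 or more summits, genes of the lists, and the edge of the rule. Members, gene lists and ranks were chosen with earlier results of these data known. No test was run, since no value per library was used and the same lists chose the members. Alternatives were other overlap rules, q-value limits, promoter and window definitions. One of the sites at the edge of the rule is not reported here.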

Additional observations from a re-analysis of the deposited data

Results flagged for a closer look

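The difference between the inhibitors at shared sites was flagged from the direct comparison. Of the 358 shared MS-275 gained peaks, 82 were also in the list of MS-275 over CXD101 (22.9%), against 17.4% of all MS-275 gained peaks. Counted by site, it was 47 of 239 (19.7%, Wilson interval 15.1% to 25.2%), an interval that includes this background. With summits required within 250 bp, it was 15.6% of the shared peaks and 14.0% of all MS-275 gained peaks. By site, the share was therefore not separated from the background, which counts peaks and not merged sites. The list of CXD101 over MS-275 had 2 peaks in all and held none of the 358. The authors' peak caller tested the difference between the inhibitors on pooled libraries, and no test over mice was possible. Since the direct list shares the treated libraries with the lists that selected the members, the count is a description.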

How the results depend on the processing

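No paired analysis was possible because each list was called on pooled libraries, and leaving out each library in turn could not be run either. Of 27 alternatives to the results named above, 20 left the count within 1.5 times the main value or the share within its interval, and 0 reversed a direction. The others were as follows. The median ratio of MS-275 to CXD101 was 1.19 from the deposited folds, and 21.3% of shared sites touched the promoter of a protein-coding gene. The share of MS-275 members in the direct list was 15.6% with summits within 250 bp. Any of the 14 motifs was found in 41.4% of sites, in 22.2% with shorter windows of 50 bp on either side and in 68.2% with whole intervals. Of 359 listed genes, 8 had a shared site, 15 within 50 kb and 4 in the 5 kb upstream alone. The share of sites over 50 kb from a TSS was 13.8% with the TSS of any gene, against 7.03% of other MS-275 gained intervals; this alternative was added after seeing the data. The MS-275 members numbered 239 to 358 and the CXD101 members 212 to 268 under all alternatives. Whether the sites differ between mice cannot be judged from pooled lists, and at the median of 51.9 CXD101 tags a ratio near 1 cannot be told from equality.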

Other observations

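The share of shared sites on single chromosomes was set beside that of other MS-275 gained intervals and of the sequence. Chromosome 10 held 23 of the 239 (9.62%, Wilson interval 6.50% to 14.0%), against 6.73% of the other MS-275 gained intervals and 4.96% of the sequence. Chromosome 2 held 15 (6.28%, 3.84% to 10.1%), against 9.70% and 6.91%. Both intervals include the share of other MS-275 gained intervals. No test over all chromosomes was run, so an uneven spread is not established. The X chromosome held 4 (1.67%), close to the 1.54% of other MS-275 gained intervals, with 6.49% of the sequence. Few shared sites had a close neighbour: of 219 pairs of neighbours on a chromosome, 10 were at most 10 kb apart and 7 at most 1 kb. Within 50 kb, 15 of 359 listed genes (4.18%) and 325 of all 21755 coding genes (1.49%) had a shared site. The lists were chosen with earlier results of these data known, hold Nedd4 and Trim6, and were not matched to all genes for length. These shares are therefore a description and do not show an enrichment. The genes beyond those named above were Chd3 and Mbd2, which encode subunits of the NuRD co-repressor, Id1, an inhibitor of basic helix-loop-helix factors, Stat6, the transcription factor of interleukin-4 signalling, Pmaip1, which encodes the pro-apoptotic protein NOXA, Shank3, a postsynaptic scaffold gene, and Vsig4. Distances of this size do not tie a site to a gene.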
